A study of Mus musculus with 8 samples.

Results

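The members of a group of 10 genes of the ventricular sarcomere were followed through every library of the series: *Actc1*, *Tpm1*, *Tnnt2*, *Tnni3*, *Tnnc1*, *Myl2*, *Myl3*, *Ttn*, *Actn2*, and *Myom1*. They were chosen by symbol, as core components of the contractile apparatus of ventricular muscle, and all 10 were found among the 16994 genes of the count table. The hearts came from male WT mice and from mice with whole-body TIGAR knockout (TKO), whose strain and allele the sources used here do not name. Infarct, border, and remote zones were taken 4 weeks after myocardial infarction, induced at 16 weeks of age by permanent ligation of the left anterior descending coronary artery, and left ventricular tissue served as the reference. The sources used here do not name whether those reference hearts were sham operated, nor their age. Each genotype and region is 1 library, 8 in all. RNA from 3 mice was pooled for each infarct zone library, and the number of mice for the other regions is not named.

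The sarcomere is the repeating contractile unit of striated muscle. Myosin heads of the thick filament pull on actin of the thin filament, calcium binding to the troponin complex moves tropomyosin to permit it, and titin spans from the Z disc to the M band as a molecular spring. Injured and failing ventricles are known for a shift toward fetal isoforms of several of these proteins, and an infarct scar is known for loss of muscle cells. In bulk tissue, fewer muscle cells and less transcript per muscle cell cannot be told apart, which holds for every level below.

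Total counts were 27429240 to 33799249 per library. *Tigar*, the disrupted gene, had 1066 to 2215 counts in the 4 WT libraries and 51 to 87 in the 4 TKO libraries. Levels are given as CPM, read counts put on a common scale per library after adjustment by TMM (edgeR's trimmed mean of M values). The TMM factor was 1.54 for the WT and 1.26 for the TKO infarct zone and lay between 0.866 and 0.956 for the other 6 libraries, so the choice of scaling matters most for the infarct zone. With total counts in place of TMM, the median of all 12999 tested genes moved by 0.83 on the log2 scale for infarct zone over left ventricle in WT, by 0.54 in TKO, and by -0.29 for TKO over WT in the infarct zone. The 10 genes together took from 1.89% of all counts (WT infarct zone) to 4.18% (TKO left ventricle). Genes of fast skeletal muscle set the WT infarct and WT border zone libraries apart. *Myh1*, *Myh2*, *Myh4*, *Tnnt3*, *Tnni2*, and *Mylpf* summed to 141 CPM in the WT infarct zone and to 26.8 CPM in its border zone, against 1.16 to 2.66 CPM in the other 6 libraries, and *Mylpf* was at 0 in the TKO left ventricle. Atrial genes (*Myl7*, *Myl4*, *Sln*, *Bmp10*) summed to 602 CPM in the WT remote zone and 212 CPM in the TKO remote zone, against 7.08 to 58.6 CPM elsewhere.

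Short stretches just before the RefSeq start of 6 of these genes are shown because they hold motifs known from the regulatory sequences of striated muscle. Any relation of a motif to the levels in the libraries was not tested. Sequences are from RefSeq on GRCm38.p6, read from windows of 250 bases before to 50 bases after the gene start, and all 10 genes matched. The GENCODE models of *Actc1*, *Myl3*, *Myom1*, and *Tpm1* begin further upstream than the start used here, so these 4 stretches lie inside the annotated gene, outside exons for the first 3 and in a noncoding part of exons of longer transcripts for *Tpm1*. Those of *Tnnt2* and *Tnnc1* lie upstream of the gene and touch no exon. Among the genes not printed, both windows of *Myl2* lie wholly upstream of its GENCODE gene, which begins at chr5:122100951. The starts used for *Tnni3* and *Actn2* lie inside their GENCODE genes. The motifs searched, on both strands, were the TATA box (TATAAA), the core of the M-CAT element (CATTCC), which TEAD factors bind, a site of GATA factors (AGATAA), the E box (CANNTG), the MEF2 site, and the CArG box, which is bound by serum response factor. A MEF2 site or a CArG box can contain the TATA box. Capitals mark the CArG box in the first 3 and the M-CAT core in the last 3, where GGAATG is the same core read on the opposite strand.

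Actc1, chr2:114052903-114052932, minus strand: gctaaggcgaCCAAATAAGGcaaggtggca

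Myl3, chr9:110763583-110763612, plus strand: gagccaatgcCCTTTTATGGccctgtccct

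Myom1, chr17:71019448-71019477, plus strand: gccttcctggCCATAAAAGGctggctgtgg

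Tpm1, chr9:67049254-67049279, minus strand: gctgtcctaaGGAATGcggtcgcccc

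Tnnt2, chr1:135836297-135836322, plus strand: tcctgctgcaCATTCCtccctccgcg

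Tnnc1, chr14:31208244-31208269, plus strand: ggctgggctgGGAATGtagcaggagg

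With 1 window taken for each gene, the CArG box was present in 3 of the 10 windows, as shown above, and in 1.3% of the 10092 windows of tested genes (1.6% of all 27025). The M-CAT core was present in 5 of 10, those of *Tpm1*, *Tnnt2*, *Tnnc1*, *Myl3*, and *Ttn*, against 11.9% of tested genes and 14.6% of all. The GATA site was found in 3 of 10 (6.1% of tested genes), the MEF2 site in 1 (1.9%), the TATA box in 1 (7.3%), and the E box in 10 (63.1%). *Tnnt2* and *Myl2* have a second window each, which added only a TATA box, in that of *Myl2*. The TATA box of *Actc1* (bases 34 to 39) and the M-CAT core of *Ttn* (bases 12 to 17) lie after the start. A match is a description of letters in the window.

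The thin filament genes were abundant in all regions and lowest in the infarct zone of each genotype. *Actc1* (cardiac α-actin; chromosome 2, 114047282 to 114053548 on GRCm38) stood at 6720 CPM in the left ventricle of WT hearts and at 2324 (infarct), 6326 (border), and 6288 CPM (remote) in their zones. In TKO hearts it stood at 8742, 4283, 7344, and 7515 CPM in the same order. TKO exceeded WT in all 4 regions, and both infarct zone libraries lay below the other 6. The protein of *Actc1* is near-identical to those of *Acta1* and *Acta2*. Any reads shared by these genes were divided among them by Kallisto, and the effect on the estimated counts was not tested.

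*Tpm1* (α-tropomyosin, which lies along actin; chromosome 9, 67022590 to 67049406) was at 7817, 2520, 6489, and 7616 CPM in WT and at 7496, 3944, 7210, and 7349 CPM in TKO, in the order left ventricle, infarct, border, and remote zone. Its genotypes changed order between regions: TKO was lower in the left ventricle and the remote zone and higher in the infarct and border zones. *Tnnt2* (cardiac troponin T, which anchors the troponin complex to tropomyosin; chromosome 1, 135836354 to 135852260) was at 4383, 1468, 3373, and 3729 CPM in WT. In TKO it was at 5036, 2407, 4284, and 3962 CPM, above WT in each region.

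*Tnni3* (cardiac troponin I, the inhibitory subunit; chromosome 7, 4518305 to 4524229) was at 3649, 737, 2476, and 3112 CPM in WT and at 4245, 1570, 3258, and 3326 CPM in TKO. It had the widest span of the 5 thin filament genes relative to its own level, with the WT infarct zone far below the rest. *Tnnc1* (the calcium-binding troponin C of heart and slow muscle; chromosome 14, 31208312 to 31211729) was at 1867, 552, 1773, and 1694 CPM in WT. The TKO levels were 2378, 1037, 1919, and 1766 CPM, again higher than WT in every region, by little in the remote zone.

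Both light chain genes ran from the left ventricle over the remote and border zones to the infarct zone, from highest to lowest, in each genotype. *Myl2* (the ventricular regulatory light chain; chromosome 5, 122100951 to 122113472) was at 7076, 1707, 5328, and 5604 CPM in WT and at 7968, 3205, 6005, and 6051 CPM in TKO. *Myl3* (the ventricular essential light chain; chromosome 9, 110741861 to 110769798) was at 6041, 1323, 5015, and 5752 CPM in WT and at 6991, 2626, 5524, and 5640 CPM in TKO. Only the remote zone placed TKO below WT for *Myl3*, whereas for *Myl2* TKO was higher in all 4 regions.

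The genes of 3 structural proteins were, like *Tpm1*, lower in TKO than in WT in the left ventricle. *Ttn* (titin; chromosome 2, 76703980 to 76982547) was at 3388, 871, 2610, and 2391 CPM in WT and at 2692, 1561, 2903, and 3013 CPM in TKO. *Actn2* (α-actinin 2, which crosslinks actin at the Z disc; chromosome 13, 12269426 to 12340760) was at 1734, 403, 1270, and 1205 CPM in WT and at 1600, 788, 1406, and 1373 CPM in TKO. *Myom1* (myomesin 1, which links thick filaments at the M band; chromosome 17, 71002633 to 71126856) was at 1237, 340, 1085, and 877 CPM in WT and at 1101, 614, 1078, and 1016 CPM in TKO. For all 3, TKO lay below WT in the left ventricle and above it in the infarct and remote zones, and in the border zone *Myom1* was nearly equal.

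**Figure D1:**
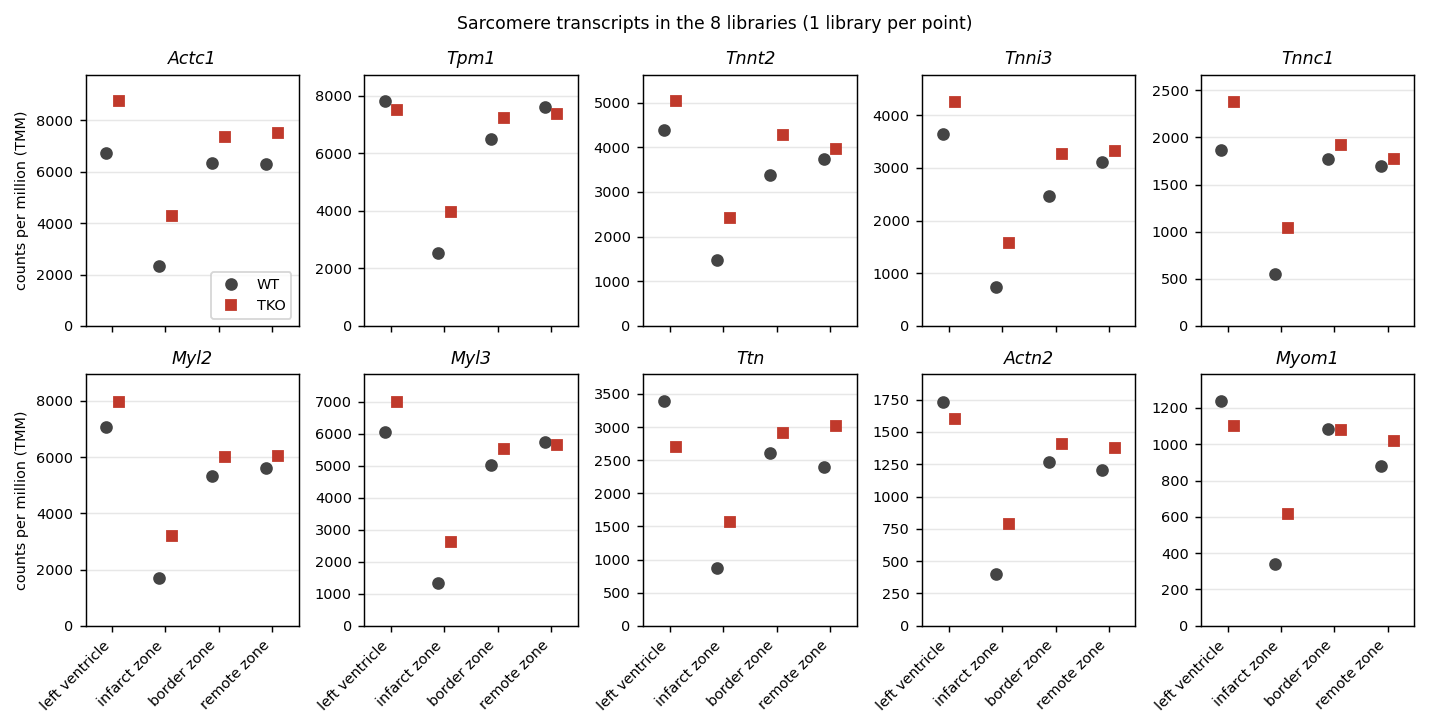
Level of each sarcomere gene (vertical axes, TMM-scaled CPM, starting at 0) in the 4 regions (horizontal axes); circles are WT libraries, squares are TKO libraries, and each point is 1 library. In each of the 10 panels both infarct zone points lie below the other 6, and the WT infarct zone is the lowest, for example 737 CPM against 1570 in TKO for Tnni3.

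Levels between genes were compared per kilobase of transcript, using for each gene the length of 1 annotated transcript. On this scale the mean over 8 libraries was highest for *Myl2*, at 6038 CPM per kb (1920 to 8963 over libraries), followed by *Myl3* at 5191, *Actc1* at 4204, *Tnni3* at 3066, *Tnnt2* at 2983, *Tnnc1* at 2252, and *Tpm1* at 2182. *Actn2* (406), *Myom1* (163), and *Ttn* (22.7 CPM per kb, 8.16 to 31.7) came last. *Tnni3* and *Tnnt2*, and likewise *Tnnc1* and *Tpm1*, differed by less than their spread over libraries. Per kilobase of coding sequence, *Tpm1*, whose annotated transcript has 2890 bases of which 978 are coding, moved from rank 7 to rank 3 with 6447 CPM per kb.

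Within each genotype all 10 genes were lower in the infarct zone than in the left ventricle, and the ratio was lower in WT for each. In WT the ratio of infarct zone to left ventricle ran from 0.202 for *Tnni3* (exact 95% interval, 0.1995 to 0.2047, for counting error only) to 0.346 for *Actc1* (0.343 to 0.349), with a median of 0.266. In TKO it ran from 0.370 for *Tnni3* to 0.580 for *Ttn* (0.5735 to 0.5864), with a median of 0.484. *Tnni3*, *Myl3*, and *Actn2* fell furthest in WT, whereas in TKO they were *Tnni3*, *Myl3*, and *Myl2*. At least 2-fold lower were 10 of 10 in WT, where 14.9% of the 12999 tested genes were, and 7 of 10 in TKO, where 7.68% were; *Tpm1* (0.526), *Myom1* (0.558), and *Ttn* were the other 3. With total counts as the scaling the medians were 0.472 in WT and 0.703 in TKO.

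The regions were tested with edgeR's quasi-likelihood test on all 8 libraries, in which the genotypes stand in for replicates and adjusted p-values are Benjamini-Hochberg values over all tested genes. All 10 genes passed as lower in the infarct zone than in the left ventricle, as did 28.6% of all tested genes. Estimates ran from -1.84 ± 0.30 (SE) on the log2 scale for *Tnni3* (adjusted p = 0.00283) to -1.26 ± 0.27 for *Actc1* (adjusted p = 0.00839), with a median of -1.41, against a median of 0.02 over all tested genes. *Myl3* (-1.76 ± 0.31), *Myl2* (-1.66 ± 0.29), and *Actn2* (-1.54 ± 0.28) lay toward the first of these, and *Ttn* (-1.37 ± 0.30), *Myom1* (-1.33 ± 0.27), *Tnnt2* (-1.31 ± 0.24), and *Tpm1* (-1.26 ± 0.28) toward the second. With total counts the 10 still passed, with estimates from -1.17 for *Tnni3* to -0.59 for *Tpm1*, while the calls over all genes shifted from 3670 higher and 3715 lower to 7869 higher and 1084 lower. Without the WT infarct zone library, which held most of the fast skeletal muscle transcripts, the median estimate was -1.09, and without the WT left ventricle library it was -1.25. Each of these fits leaves 1 library in the region concerned, so only the estimates are given. The part of the fast skeletal muscle transcripts in the fall was not tested.

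None of the 10 passed in the other zones. In the border zone all 10 estimates were negative, from -0.47 ± 0.29 for *Tnni3* (adjusted p = 0.42) to -0.12 ± 0.26 for *Myom1*. By edgeR 0.0462% of all tested genes passed as lower there. By DESeq2 0 of the 10 genes passed, where 99 of 12999 tested genes passed as lower. The remote zone gave estimates from -0.39 ± 0.28 for *Actn2* to -0.03 ± 0.28 for *Tpm1*, and there 0 of 12999 genes passed as lower by edgeR (0%), with 1378 at an unadjusted p under 0.05 in either direction and 35 passing as lower by DESeq2. In WT, *Actn2* and *Ttn* had remote over left ventricle ratios of 0.695 and 0.706, and in TKO the values were 0.858 and 1.12. *Tpm1* stayed closest to the left ventricle in the remote zone, at 0.974 in WT and 0.980 in TKO.

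**Figure D2:**
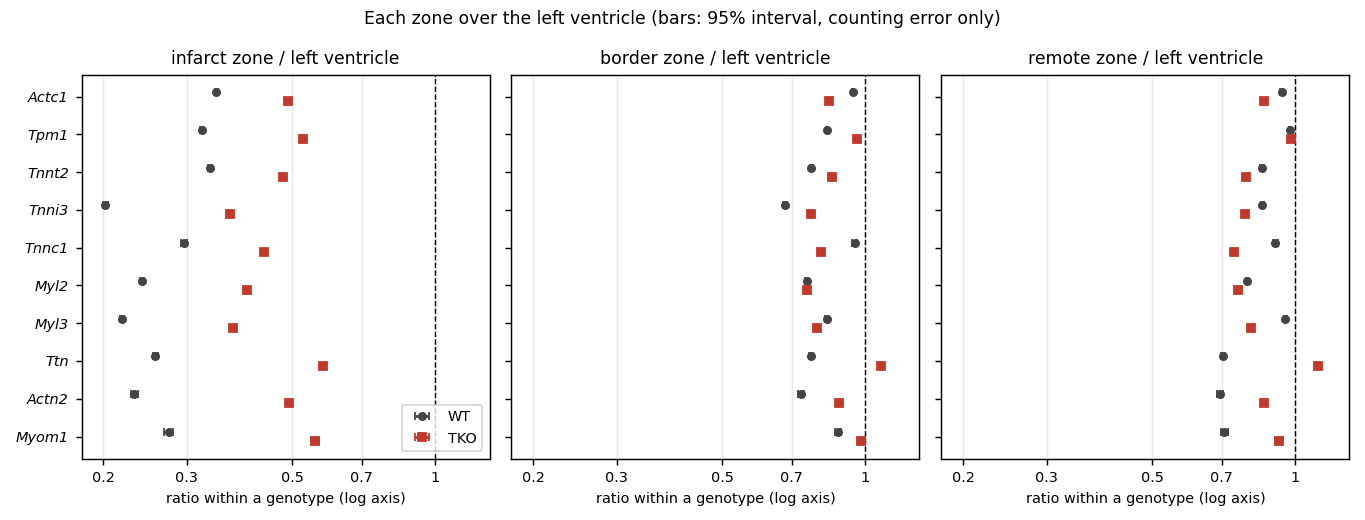
Ratio of each zone to the left ventricle within a genotype (horizontal axes, logarithmic) for the 10 genes; circles are WT, squares are TKO, and bars are 95% intervals for counting error only. In the infarct zone, with TMM scaling, the WT ratios run from 0.202 to 0.346 and the TKO ratios from 0.370 to 0.580, without overlap. In the border and remote zones the genotypes overlap. With total counts the WT and TKO ranges overlap in the infarct zone too. WT Actc1 went from 0.583% of all counts in the left ventricle to 0.359% in the infarct zone, and TKO Tnni3 from 0.368% to 0.198%.

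Other cell types moved with the fall. Of the markers listed for each type, 8 of 8 fibroblast genes, 7 of 7 macrophage and leukocyte genes, 5 of 5 red blood cell genes, and 4 of 5 smooth muscle genes passed as higher in the infarct zone than in the left ventricle, where 28.2% of all tested genes did. The fibroblast genes summed to 8277 CPM in the WT and 6856 CPM in the TKO infarct zone, against 874 to 2995 CPM in the other 6 libraries, and the leukocyte genes to 1543 and 1140 CPM against 302 to 566 CPM. Red blood cell genes summed to 4845 CPM in the WT and 5113 CPM in the TKO infarct zone, against 2137 to 3149 CPM elsewhere, and smooth muscle genes to 727 and 493 CPM against 270 to 331 CPM. Of 6 endothelial genes 1 passed, as lower (*Kdr*), where 28.6% of all tested genes did. With total counts in place of TMM, 5 of these 6 passed as higher and 0 as lower. In that setting 7869 of the 12999 tested genes passed as higher and 1084 as lower. The endothelial sums were 517 to 734 CPM over the 8 libraries. No fibroblast, leukocyte, endothelial, smooth muscle, or red blood cell marker was at 0 in any library, and the part of any cell type in the fall of the sarcomere genes was not tested.

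Of the 4 regions, the infarct zone had the median TKO over WT ratio furthest from 1, with each of the 10 genes higher in TKO. That median was 1.86, with values from 1.565 for *Tpm1* (1.553 to 1.578) to 2.13 for *Tnni3* (2.10 to 2.16), the only one at least 2-fold higher, as were 2.45% of all tested genes. *Myl3* (1.98), *Myl2* (1.88), *Actc1* (1.84), *Myom1* (1.81), and *Ttn* (1.79) were within these bounds. The median of all tested genes was 1.005. Set against the median ratio of 20 heart muscle genes outside the sarcomere, the median of the 10 genes was 1.007, and with total counts it was 1.52.

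In the border zone the median ratio was 1.11 and 9 genes were higher in TKO, led by *Tnni3* (1.32, 1.304 to 1.329) and *Tnnt2* (1.27). *Myom1*, at 0.994 (0.979 to 1.01), showed no difference detectable at this depth. In the remote zone 8 genes were higher, most of all *Ttn* (1.26, 1.248 to 1.273) and *Actc1* (1.20), and 2 were lower, *Tpm1* (0.965) and *Myl3* (0.981). None of these ratios has a replicate check. The WT border zone library also held fast skeletal muscle transcripts, whose part in the border zone ratios was not tested.

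Markers of other cell types differed between the genotypes in the same libraries. All 8 fibroblast genes were lower in TKO in the infarct (median ratio 0.810), border (0.568), and remote zone (0.690), while 5 of 8 were higher in the left ventricle (1.19). The macrophage and leukocyte genes were lower in TKO in the infarct (7 of 7, 0.728), border (7 of 7, 0.810), and remote zone (7 of 7, 0.701) and in the left ventricle (6 of 7, 0.840). Smooth muscle genes had a median ratio of 0.560 in the infarct zone and 1.19 in the border zone, and red blood cell genes were higher in TKO in the left ventricle, infarct, and border zones (5 of 5 in each, medians 1.26, 1.05, and 1.21). In the edgeR test of genotype across regions all 7 leukocyte genes had an unadjusted p under 0.05, as did 16.2% of all tested genes. Of the 7, 1 passed as lower in TKO, *Ptprc* (the pan-leukocyte antigen CD45, -0.67 ± 0.07 on the log2 scale, adjusted p = 0.043), where 0.0615% of all tested genes did. None of the 8 fibroblast genes passed, and 3 had an unadjusted p under 0.05. By DESeq2 4 leukocyte and 2 fibroblast genes passed as lower, where 220 of 12999 tested genes did. The part of these cell types in the TKO over WT ratios of the sarcomere genes was not tested.

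The left ventricle divided the genes. The ratio was above 1 for *Actc1* (1.30, 1.293 to 1.309), *Tnnc1* (1.27), *Tnni3* (1.16), *Myl3* (1.16), *Tnnt2* (1.15), and *Myl2* (1.13). It was below 1 for *Tpm1* (0.959), *Actn2* (0.923), *Myom1* (0.890), and *Ttn* (0.794, 0.787 to 0.802). The 6 higher genes have transcripts of 721 to 1473 bases, and the 4 lower genes have 2890, 3013, 5648, and 106824 bases.

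**Figure D3:**
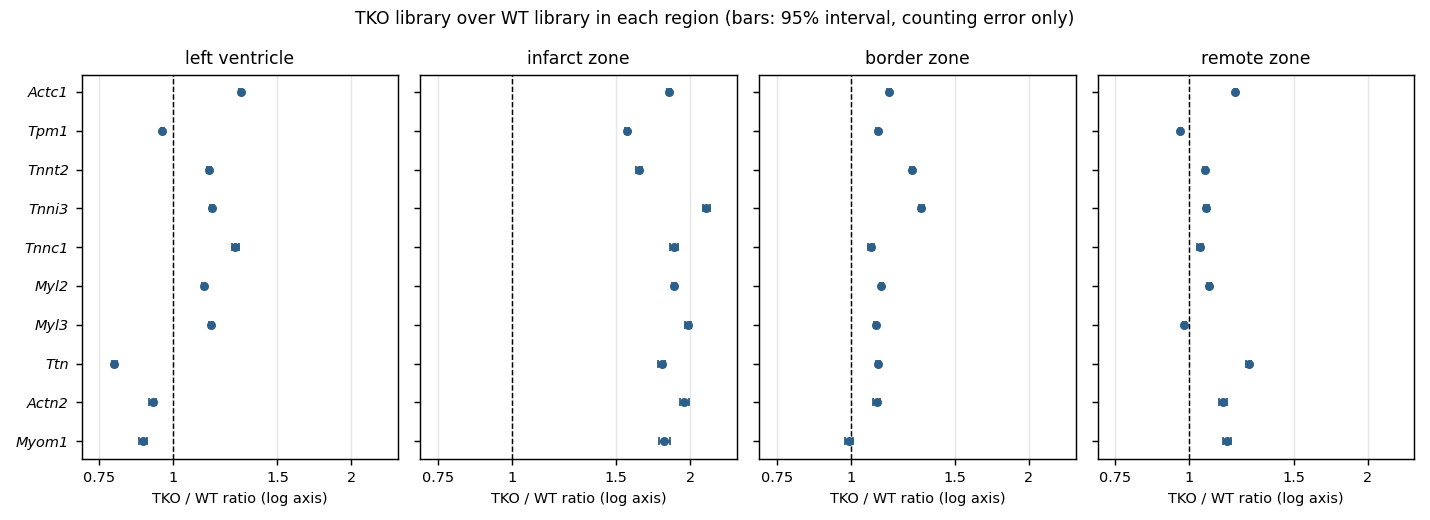
TKO over WT ratio of the 10 genes in each region (horizontal axes, logarithmic, dashed line at 1); bars are 95% intervals for counting error only. All points lie to the right of 1 in the infarct zone, from 1.565 to 2.13, whereas the left ventricle has 6 genes above 1 and 4 below, with Ttn lowest at 0.794.

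The same relation to length was seen over all genes of the left ventricle. For tested genes with transcripts under 2 kb the median TKO over WT ratio was 1.087, for 2 to 4 kb 1.016, for 4 to 6 kb 0.966, for 6 to 10 kb 0.911, and above 10 kb 0.874 (314 genes, quartiles 0.760 and 1.04). The infarct zone and the border zone showed a flatter course, from 1.046 to 0.987 and from 1.025 to 0.991, and the remote zone ran the other way, from 0.956 to 1.043. The 50 muscle genes of the 3 lists (the 10, 20 other sarcomere genes, and 20 heart muscle genes outside it) had medians in the left ventricle of 1.143 below 3 kb, 1.009 for 3 to 6 kb, and 0.801 above 6 kb. In the infarct zone the corresponding medians were 1.85, 1.81, and 1.79. The part of transcript length in the left ventricular differences of *Ttn*, *Myom1*, *Actn2*, and *Tpm1* was not tested.

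**Figure D4:**
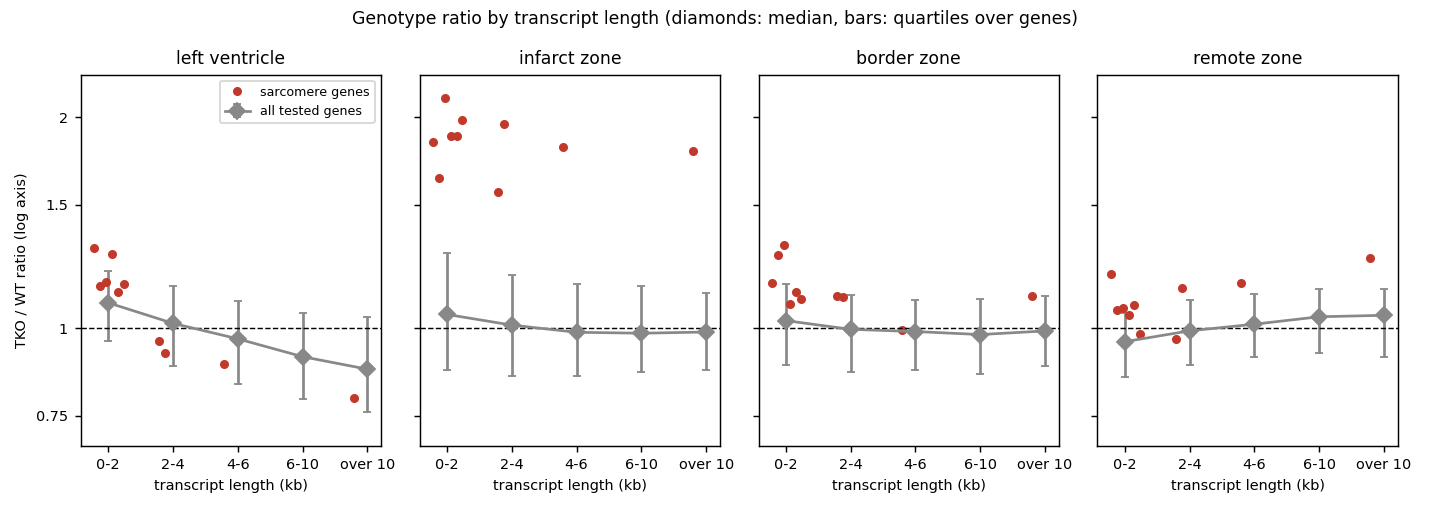
TKO over WT ratio (vertical axes, logarithmic) by class of transcript length in kb (horizontal axes) in each region; diamonds and bars are the median and quartiles of all tested genes, and points are the 10 sarcomere genes. In the left ventricle the medians fall from 1.087 to 0.874 and the sarcomere genes fall with them, whereas in the infarct zone the 10 points lie above the upper quartile of their class at every length.

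Across the 4 regions as blocks, the edgeR test put all 10 genes higher in TKO, with estimates from 0.17 ± 0.20 (SE, log2) for *Tpm1* to 0.45 ± 0.20 for *Tnni3* and a median of 0.33, but 0 of 10 passed, where 0.0769% of all tested genes passed as higher. The lowest adjusted p was 0.33, for *Actc1* (0.43 ± 0.19). At an unadjusted p under 0.05 there were 0 of 10 by edgeR, where 16.2% of all tested genes had one, and 5 of 10 by DESeq2, where 15.5% did. After adjustment 0 of 10 passed by DESeq2, where 0.9% of all tested genes passed as higher. Here regions stand in for replicates, so the test bears on regions and not on mice. Without the infarct zone the median estimate was 0.13, with *Myom1* at 0.01 and *Actc1* at 0.29, and 3 of 10 had an unadjusted p under 0.05, as did 9.49% of all tested genes.

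The infarct zone was therefore tested for its departure from the genotype difference of the other 3 regions. All 10 estimates were positive, from 0.50 ± 0.17 for *Tnnt2* to 0.89 ± 0.19 for *Actn2*, with a median of 0.77 against 0.05 over all tested genes. By edgeR 0 of 10 passed (adjusted p from 0.41 to 0.58) and all 10 had an unadjusted p under 0.05, while over all genes 0 of 12999 passed as higher (0%) and 1018 (7.83%) had an unadjusted p under 0.05 in either direction. By DESeq2's Wald test 6 of 10 passed, where 1.15% of all tested genes did: *Myl3* (adjusted p = 0.0081), *Myl2*, *Actn2*, *Tnni3*, *Myom1*, and *Tnnc1* (adjusted p = 0.048). *Actc1*, *Tpm1*, *Ttn*, and *Tnnt2* did not pass by either tool. The departure rests on 1 TKO and 1 WT library of the infarct zone. That WT library held most of the fast skeletal muscle transcripts, whose part in the departure was not tested.

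The departure of the left ventricle from the other 3 regions, a test added after its ratios had been seen, had negative estimates for all 10 genes. *Ttn* was the lowest at -0.77 ± 0.42 (adjusted p = 0.41) and *Tnnc1* the highest at -0.01 ± 0.45, and 0 of 10 passed by edgeR, where 0.423% of all tested genes passed as lower. At an unadjusted p under 0.05 there were 0 of 10 by edgeR, against 16.8% of all tested genes, and 1 by DESeq2, *Ttn*, against 9.15%. After adjustment 0 of 10 passed by DESeq2, where 1.35% of all tested genes passed as lower.

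Proportions among the genes, which do not depend on how libraries are scaled, changed with region. There were 0.833 counts of *Tnni3* per count of *Tnnt2* in the left ventricle of WT and 0.843 in that of TKO, but 0.502 (WT) and 0.653 (TKO) in the infarct zone. The border zone was between these, at 0.734 in WT and 0.760 in TKO, and the remote zone was at 0.835 and 0.840, near the left ventricle. The transcript of troponin I was thus scarcer relative to that of troponin T in the infarct zone of both genotypes, with no replicate to give the spread. *Myl3* per count of *Actc1* was also lower there, at 0.569 (WT) and 0.613 (TKO) against 0.751 to 0.915 in the other 6 libraries. *Ttn* per count of *Actc1* was 0.504 in the WT and 0.308 in the TKO left ventricle, the extremes of the 8 libraries, and 0.365 to 0.413 in the other 6. *Myl2* per count of *Myl3* was 1.17 and 1.14 in the left ventricle, 1.29 and 1.22 in the infarct zone, 1.06 and 1.09 in the border zone, and 0.974 and 1.07 in the remote zone (WT and TKO). *Myl2* varied least against the median of the 10 genes, over a range of 0.18 on the log2 scale, and *Myom1* (0.62) and *Ttn* (0.60) most.

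The rest of the sarcomere moved in the same direction in the infarct zone for most genes. Of 20 other sarcomere genes 18 passed as lower there than in the left ventricle, with a median of -1.34 over the 20. In this test 28.6% of all tested genes passed as lower and 28.2% as higher. *Myh6* (α-myosin heavy chain, the fast adult isoform of the mouse ventricle) was the lowest, at -1.85 ± 0.54 (adjusted p = 0.027), and *Mybpc3* (cardiac myosin-binding protein C) was at -1.25 ± 0.28. *Myh7* (β-myosin heavy chain, the slow isoform of the fetal mouse ventricle) passed as higher, at 1.65 ± 0.46 (adjusted p = 0.022), and *Synpo2l*, a Z disc protein gene, did not pass (-0.05 ± 0.24). With total counts 14 of the 20 passed as lower and 2 as higher, where 1084 and 7869 of 12999 tested genes did. In TKO over WT, the 20 genes had a median ratio of 1.74 with 20 higher (infarct zone) and of 1.01 with 11 higher and 9 lower (left ventricle). The 20 heart muscle genes outside the sarcomere, of which 19 were tested, had 16 passing as lower and 1, *Tbx20* (a cardiac transcription factor), as higher, while *Ckm* (muscle creatine kinase) was the lowest at -1.91 ± 0.25. The median of their TKO over WT ratios was 1.85 there and 1.10 for left ventricle. With total counts, 11 of the 19 tested ones passed as lower in the infarct zone and 2 as higher.

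Per count of these 20 genes summed, the 10 sarcomere genes had 1.23 (WT) and 1.13 (TKO) counts in the infarct zone. In the left ventricle the values were 1.05 and 1.10, in the border zone 1.08 and 1.04, and in the remote zone 1.002 and 0.997 (WT and TKO).

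Counterparts of the 10 genes in other muscles or in non-muscle cells behaved differently. Of 18 such genes 11 passed as higher in the infarct zone and 1, *Tnnt1* (slow skeletal troponin T), as lower (-1.36 ± 0.14). Of all tested genes 28.2% passed as higher and 28.6% as lower. Those that passed included *Actn1* (the non-muscle α-actinin, 1.93 ± 0.11), *Acta2* (smooth muscle α-actin, 1.66 ± 0.22), *Tpm4* (0.64 ± 0.13), and, with the highest estimate, *Mylpf* (fast skeletal regulatory light chain, 5.13 ± 1.32). *Mylpf* had 743 counts in the WT and 16 in the TKO infarct zone. In WT the 18 genes had a median ratio of infarct zone to left ventricle of 3.56, with 17 higher and 1 lower. In TKO the median was 1.69, with 12 higher and 5 lower. *Actn1* was 23.6% (WT) and 9.98% (TKO) of the sum of *Actn1* and *Actn2* counts in the infarct zone, and 1.54% to 3.52% in the other 6 libraries. *Acta2* was 11.1% (WT) and 4.08% (TKO) of the sum with *Actc1* in that zone, and 0.781% to 1.28% in the other 6 libraries. These 2 genes are also expressed by fibroblasts and smooth muscle, whose markers rose in the same libraries.

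Counterparts known as fetal isoforms differed in pattern, and which cells held their transcripts was not tested. *Myh7* was 51.9% (WT) and 24.6% (TKO) of the sum with *Myh6* in the infarct zone, and 28.5% and 8.34% of it in the border zone. The remote zone had 13.7% and 5.73%, the left ventricle 3.67% and 6.29%. The share was higher in WT in the 3 zones after infarction and higher in TKO in the left ventricle. In the infarct zone *Myh7* itself was at 1155 CPM in WT and 1190 CPM in TKO, whereas *Myh6* was at 1072 and 3654 CPM. In the border zone *Myh7* was at 2081 CPM in WT and 660 CPM in TKO, and *Myh6* at 5234 and 7248 CPM. *Tnni1* (slow skeletal and fetal troponin I) did not exceed 0.710% of the sum with *Tnni3* in any library. Its WT libraries had 7 (left ventricle), 223 (infarct), 243 (border), and 170 counts (remote). The TKO libraries had 15, 158, 2, and 13 counts in the same order, with the border value at the floor of 3 counts or fewer. *Acta1* (skeletal α-actin) was 3.60-fold as abundant in the TKO as in the WT left ventricle (3.47 to 3.74), and its ratios in the infarct, border, and remote zones were 1.77, 0.866, and 0.639. None of the 18 passed the test of genotype across regions by edgeR. In it 16 had estimates below 0, and 13 had an unadjusted p under 0.05, against 16.2% of all tested genes. By DESeq2 3 passed as lower in TKO, where 220 of 12999 tested genes did: *Actn1*, *Tnnc2*, and *Actn3* (fast skeletal α-actinin). The last pair belong to the fast skeletal muscle genes that were high in the WT infarct zone.

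**Figure D5:**
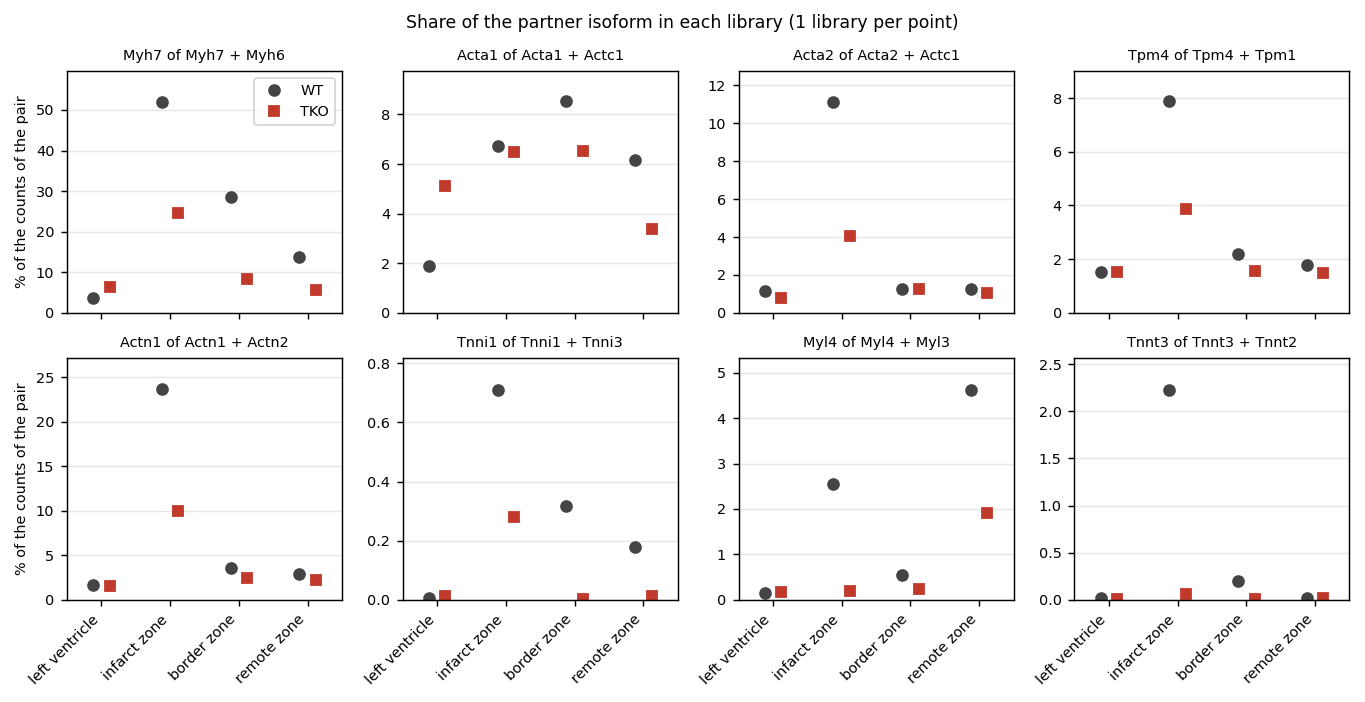
Share of a counterpart in the summed counts of itself and its ventricular partner (vertical axes, percent, starting at 0) in the 4 regions; circles are WT, squares are TKO, and each point is 1 library. Myh7 reaches 51.9% in the WT infarct zone and 24.6% in the TKO infarct zone, at Myh7 levels of 1155 and 1190 CPM. Tnnt3, of fast skeletal muscle, is above 1% only in the WT infarct zone, and Myl4, of atrial muscle, is highest in the WT remote zone.

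Counterparts that belong to other muscles were seen in particular libraries. *Tnnt3* (fast skeletal troponin T) had 1414 counts (infarct) and 205 counts (border) in the WT zones, and 11 to 50 in the other 6 libraries. *Tnnc2* (fast skeletal troponin C) had 888 and 127 counts there and 2 to 12 elsewhere, and *Myh4* 1486 and 193 against 1 to 6. *Myl7* and *Myl4*, the atrial light chains, had 5227 and 8492 counts in the WT remote zone and 2031 and 3325 in the TKO remote zone. *Myl4* was 4.63% and 1.92% of its sum with *Myl3* there. Of 7 skeletal muscle markers 4 passed as higher in the infarct zone, and of 5 atrial markers 1, *Nppa*, did, where 28.2% of all tested genes did. Summed with *Acta1*, the skeletal markers were at 133 to 618 CPM, and with *Nppa*, which stressed ventricles also express, the atrial markers were at 189 to 3046 CPM over the 8 libraries.

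Over the 8 libraries the levels of the 10 genes were highly correlated. The least alike pair was *Ttn* and *Actc1*, with a Pearson correlation of 0.952 between log2 levels, and the most alike was *Tnni3* and *Tnnt2*, with 0.996. *Ttn* was most like *Myom1* (0.989) and *Myom1* most like *Actn2* (0.991), whereas *Actc1* was most like *Tnnc1* (0.992). Over the 6 libraries outside the infarct zone, a choice made after seeing the data, the median of the 45 pairs was 0.694, against 0.981 over all 8. The pairs then ran from 0.010 for *Tpm1* and *Myom1* to 0.959 for *Tnni3* and *Tnnt2*. Among 8362 genes averaging 10 CPM or more, those most like the mean of the 10 genes were *Ddo*, *Pgm1*, *Tmem38a*, *Immt*, *Phyh*, *Iba57*, *Gsto1*, and *Rragd*, with correlations of 0.998 to 0.999. *Tmem38a* encodes a potassium channel of the sarcoplasmic reticulum, and *Immt* a protein of the mitochondrial cristae. The most opposite were *Brd2* (-0.990), *Spred1*, *Nptn*, *Dusp6*, and *Camkk2* (-0.987). These correlations describe 8 libraries of which 2 are set apart by region, and carry no test.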

How the data were processed

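The 8 libraries hold RNA from 4 regions of the heart in 2 genotypes, each combination sequenced once. Per the labels and methods, the authors trimmed reads with Trim Galore 0.6.5, quantified transcripts with Kallisto 0.46 against mm10 (GRCm38), and deposited estimated counts per gene as whole numbers, without normalization. Kallisto divides reads shared by near-identical paralogs among them. Of 16994 genes, 16867 were matched to the GENCODE annotation of GRCm38 and 153 had no symbol.

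Counts were tested with edgeR 4.0.16 in R 4.3.3 (TMM; genes averaging 1 CPM or more, 12999 in all; quasi-likelihood test; adjusted p under 0.05), with region and genotype as additive terms. DESeq2 1.42.0 (Wald test, same factors) served as the other tool. Ratios of 2 libraries have no test; their exact (Clopper-Pearson) 95% intervals cover counting error only, since reads carry no molecular identifiers. Genes at least 2-fold apart were counted after a prior count of 2, and 3 counts or fewer were taken as the floor. Nothing says which libraries share hearts, so p-values measure only the spread between these libraries.

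The alternatives were total counts, DESeq2 size factors, mitochondrial DNA–encoded genes left out, no filter, each region left out, a prior count of 2, ratios set against other heart muscle genes, coding length, and a higher level for likeness. The tests were tested on simulated data. The 10 genes, the lists (other sarcomere genes, counterparts, heart muscle genes outside the sarcomere, and markers of atrial, skeletal, and smooth muscle, fibroblasts, leukocytes, endothelium, and red blood cells), and the tests were chosen with earlier results of these data known. Genes named are the 10, from each list the highest and the lowest and those paired with 1 of the 10, and, for likeness, 8 highest and 5 lowest. The sums of fast skeletal genes without *Acta1* and of atrial genes without *Nppa* were chosen after the values were seen, and so were *Mybpc3*, *Synpo2l*, and *Kdr* as genes to name. Other steps used Python 3.11.15 with scipy 1.17.1, numpy 2.4.6, pandas 2.3.3, and matplotlib 3.10.9.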

Additional observations from a re-analysis of the deposited data

Results flagged for a closer look

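For 6 of the 10 sarcomere genes, DESeq2's Wald test called the TKO over WT difference of the infarct zone different from that of the other 3 regions. By that test 1.15% of all tested genes passed as higher. Each departure rests on 1 TKO and 1 WT library of the infarct zone. On the log2 scale the departures were 0.758 for *Myl2*, 0.844 for *Myom1*, 0.854 for *Tnni3*, 0.894 for *Actn2*, 0.881 for *Myl3*, and 0.734 for *Tnnc1*. By edgeR's quasi-likelihood test none of them passed (adjusted p of 0.41 for each), although all had an unadjusted p under 0.05. Over all tested genes 7.83% had one, in either direction.

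For 4 genes the WT and TKO libraries differed in opposite directions in the left ventricle and the infarct zone. The TKO over WT ratio in the left ventricle was 0.959 for *Tpm1*, 0.794 for *Ttn*, 0.923 for *Actn2*, and 0.89 for *Myom1*, against 1.565, 1.79, 1.96, and 1.81 in the infarct zone. The difference between these 2 regions was not tested on its own. The departures of each of the 2 regions from the other 3 were tested, and none of the 4 genes passed by edgeR.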

How the results depend on the processing

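The 10 sarcomere genes passed as lower in the infarct zone under every scaling, without the filter, and by DESeq2. Another alternative, chosen after seeing the data, left out 1 of the 4 left ventricle and infarct zone libraries. Median log2 estimates then ran from -1.81 to -1.09, on 1 library of the region concerned. Beyond the infarct zone test, 6 of 10 passed the infarct zone departure by DESeq2 and 0 by edgeR. No other test called any of them under any alternative. The genotype test pairs WT with TKO by region, since region is a term of its fit. No paired analysis by replicate number was possible because each group has 1 library.

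Total counts moved most values. The median TKO over WT ratio became 1.52 in the infarct, 1.04 in the border, and 1.06 in the remote zone, and the medians over the left ventricle became 0.472 and 0.703 (infarct, WT and TKO), 0.881 and 0.871 (border), and 0.885 and 0.856 (remote). *Tpm1* in the remote zone turned to 0.015 on the log2 scale, and the departure of the left ventricle to 0.062 for *Actc1* and 0.12 for *Tnnc1*, with no call in either setting. All genes called became 56 for genotype, 200 for border, 18 for remote zone, and 275 for the left ventricle departure. With DESeq2 size factors, the border zone medians were 1.12 for TKO over WT and 0.794 over the WT left ventricle. Against the median of other heart muscle genes, the TKO over WT medians were 1.034, 1.007, 0.944, and 0.991 (left ventricle, infarct, border, and remote zone), and those over the left ventricle 0.845 and 0.969 (infarct, WT and TKO), 0.879 and 0.923 (border), and 0.845 and 0.866 (remote). By DESeq2's Wald test the genes called were 337 for genotype, 583 for border, 167 for remote zone, 159 for the infarct and 283 for the left ventricle departure, and without the filter 3 for the remote zone. Genotype called 83 genes without the left ventricle, 6 without the infarct, 5 without the border, and 3 without the remote zone, against 18 with all. The cause of these changes was not tested. With coding length 5 of 10 genes kept their rank, and at a mean of at least 100 CPM 5 of the 8 most like genes were shared. Depth does not limit these genes, whose counts were 14363 or more. The number of mice behind each library, 1 library per group, and the scaling of the infarct zone libraries limit every comparison.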
